A study of Mus musculus with 11 samples.

Results

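The genes examined here were 9 markers of ductal differentiation and of acinar metaplasia, namely Sox9, Onecut1, Krt7, Krt8, Krt18, Krt19, Klf4, Klf5 and Spp1. They were picked by gene name, and all 9 were found among the 54532 genes of the pancreas count table and among the 46078 genes of the adipose count table. Low-count filtering left all 9 to be tested in the pancreas and 8 in adipose tissue, where Onecut1 had 1 count, in control library 2.

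Acinar cells make and secrete digestive enzymes, and duct cells line the tubes that carry them away. In an injured pancreas acinar cells can lower their enzyme programme and take on duct features, a change called acinar-to-ductal metaplasia. Krt8 and Krt18 encode the keratin pair of simple epithelia, which both acinar and duct cells hold, while Krt7 and Krt19 belong to ducts. Sox9 is the transcription factor of duct and progenitor cells, Onecut1 (also known as Hnf6) acts in duct development, Klf4 and Klf5 are zinc finger factors studied in metaplasia, and Spp1 encodes osteopontin, a secreted phosphoprotein made by duct cells, macrophages and other cells. Visceral fat holds no pancreatic ducts, but the mesothelium that covers it expresses several of the same keratins.

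Of the 11 RNA sequencing libraries, 5 were of pancreas (2 control, 3 OA-AP) and 6 of epididymal adipose tissue (3 control, 3 OA-AP), where OA-AP stands for obesity-related alcohol-induced acute pancreatitis. All were male wild type mice labelled C57BL/6 (C57BL/6J in the study's methods) and 16 W of age. The control mice were fed a diet with 10 kcal% fat and the OA-AP mice one with 60 kcal% fat over 12 weeks, and both groups were then given 2 intraperitoneal injections 1 h apart. The injections held saline for the controls and ethanol at 2 g/kg for OA-AP, and tissue was taken 12 h after the first, so that diet, ethanol and pancreatitis cannot be told apart in these groups.

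Library totals ranged from 14188832 to 17238919 counts on genes in the pancreas and from 20825177 to 27928097 in adipose tissue. Levels are given as CPM, counts relative to the library total after correction with edgeR's TMM factors. Acinar secretory genes, 56 in all, took 82.0% to 83.5% of the counts in control pancreas and 67.6% to 70.2% in OA-AP pancreas, and 0.0186% to 0.0260% in adipose tissue except in control library 2, where they took 1.17%. That adipose library also held the 1 Onecut1 count. Scaling by library totals alone moved the median over all tested pancreas genes from 0.04 to 0.75 on the log2 scale, so pancreas changes are read relative to that median, and the adipose median moved from -0.01 to -0.17. Genes were called DEGs where edgeR's quasi-likelihood test gave an adjusted p-value below 0.05 together with a change of 1.5-fold or more.

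Of the 9 genes, Krt7, Krt8 and Krt18 lie on chromosome 15, on GRCm38. Krt8 (ENSMUSG00000049382) spans 101996698 to 102004482 on the minus strand and Krt18 (ENSMUSG00000023043) 102028180 to 102032027 on the plus strand, so the keratin pair is transcribed in opposite directions from either side of 23697 bases. Krt7 (ENSMUSG00000023039, 101411043 to 101430313, plus strand) ends 566384 bases before Krt8. Krt19 (ENSMUSG00000020911, 100140810 to 100148665, minus strand) and Sox9 (ENSMUSG00000000567, 112782224 to 112787760, plus strand) are on chromosome 11. The remaining genes are Klf4 (ENSMUSG00000003032) on chromosome 4, Spp1 (ENSMUSG00000029304) on chromosome 5, Onecut1 (ENSMUSG00000043013) on chromosome 9 and Klf5 (ENSMUSG00000005148) on chromosome 14.

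RefSeq promoters of GRCm38.p6, each with 250 bases before and 50 after a transcript start, were found for 6 of the 9 genes, and none was in the table for Sox9, Krt19 and Klf5. The promoters of the keratin pair are shown because Krt8 and Krt18 rose together in the pancreas, that of Krt7 because it is the duct keratin beside them that did not, and that of Spp1 because it is the gene whose response differed between the tissues. Capitals mark matches of CCNCNCCC, the letters of KLF and GC-box type sites, on either strand, with overlapping matches each counted.
Krt8, chr15:102004293-102004592, minus strand: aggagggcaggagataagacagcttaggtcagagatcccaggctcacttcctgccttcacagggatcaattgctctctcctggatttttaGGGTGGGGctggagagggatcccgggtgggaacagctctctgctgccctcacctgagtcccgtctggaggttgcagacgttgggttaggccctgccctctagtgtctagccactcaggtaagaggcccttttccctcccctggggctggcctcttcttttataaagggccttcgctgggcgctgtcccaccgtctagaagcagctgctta
Krt18, chr15:102027966-102028265, plus strand: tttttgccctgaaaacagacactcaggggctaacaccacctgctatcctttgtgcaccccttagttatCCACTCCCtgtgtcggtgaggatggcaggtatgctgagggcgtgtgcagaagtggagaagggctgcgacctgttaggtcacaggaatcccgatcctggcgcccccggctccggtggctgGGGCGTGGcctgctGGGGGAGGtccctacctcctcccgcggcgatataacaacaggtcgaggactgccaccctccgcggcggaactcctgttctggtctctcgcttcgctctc
Krt7, chr15:101412153-101412452, plus strand: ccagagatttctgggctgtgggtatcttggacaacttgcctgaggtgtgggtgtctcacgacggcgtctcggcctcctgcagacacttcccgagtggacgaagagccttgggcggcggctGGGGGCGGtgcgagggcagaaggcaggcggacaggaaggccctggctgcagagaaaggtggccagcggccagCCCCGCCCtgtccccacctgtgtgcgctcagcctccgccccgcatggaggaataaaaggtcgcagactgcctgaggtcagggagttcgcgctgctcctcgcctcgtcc
Spp1, chr5:104434861-104435160, plus strand: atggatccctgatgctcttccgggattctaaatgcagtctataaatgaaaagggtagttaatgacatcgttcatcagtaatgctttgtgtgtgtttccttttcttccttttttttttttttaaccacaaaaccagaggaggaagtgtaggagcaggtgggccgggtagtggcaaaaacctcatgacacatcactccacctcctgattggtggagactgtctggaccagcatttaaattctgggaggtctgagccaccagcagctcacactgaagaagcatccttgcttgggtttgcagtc
The letters occurred 1 time in the Krt8 window, starting 160 bases before the transcript start, 3 times in that of Krt18, 2 times in that of Krt7, and in no place in either Spp1 window. The Klf4 window held 9 matches and the Onecut1 window 7. Of all 32851 promoters of this length in the table, 49.5% held the letters at least once, so a match is common. The AP-1 letters TGANTCA, present in 7.81% of promoters, were in none of these windows. A match of letters describes the sequence and does not show a bound site.

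In the pancreas, the question was which duct and metaplasia markers differed between OA-AP and control mice. Krt8, Krt18 and Klf5 were upregulated, by 5.05-fold, 3.22-fold and 3.30-fold, and the other 6 genes did not pass the test. These 3 of 9 compare with 29.8% of all tested genes that were called in either direction in this comparison. Krt7, Krt19, Sox9 and Onecut1, the genes that belong to ducts, were not among the DEGs. The groups of libraries did not overlap for 6 of the 9 genes, 3 higher and 3 lower in OA-AP, against 62.3% of all tested genes, and the 9 had a median of 0.30 on the log2 scale against 0.04 over all tested genes.

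Krt8, the type II keratin of simple epithelia, stood at 93.2 and 84.2 CPM in the control libraries and at 374, 241 and 729 CPM in the OA-AP libraries. Every OA-AP library was above both controls, and the spread within OA-AP was wide, with the highest about 3 times the lowest. The log2 fold change was 2.34 ± 0.50 (SE), with an adjusted p of 0.0185 in edgeR's quasi-likelihood test. Krt18, its type I partner, stood at 103 and 99.7 CPM in controls and at 287, 238 and 451 CPM in OA-AP. The OA-AP libraries kept the order they had for Krt8, again all above the controls. Krt18 rose by 1.69 ± 0.27 on the log2 scale, with an adjusted p of 0.00367 in the same edgeR test.

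**Figure D1:**
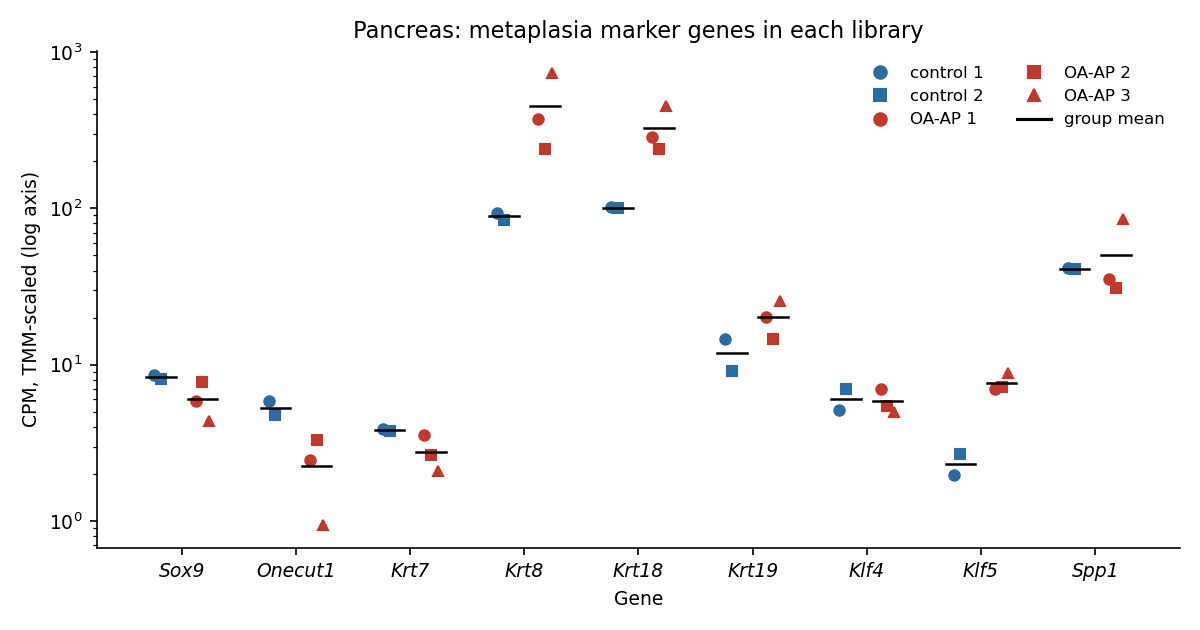
CPM of each gene in each pancreas library on a log axis, with 1 point per library, blue for the 2 controls and red for the 3 OA-AP libraries, and a bar for the group mean. Krt8, Krt18 and Klf5 are higher in every OA-AP library than in both controls, Sox9, Onecut1 and Krt7 are lower in every one, and Krt19, Klf4 and Spp1 overlap.

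Library 3 of the OA-AP pancreas was the highest in Krt8 and Krt18 and also in neutrophil markers. The summed level of 6 such markers was 1.72 and 2.79 CPM in the controls and 13.5, 4.18 and 99.5 CPM in OA-AP libraries 1, 2 and 3, and edgeR called none of the 6 (1 had an unadjusted p under 0.05), while DESeq2 called 4. Without that library the log2 fold changes were 1.74 for Krt8 and 1.33 for Krt18, both still called. Summed acinar markers (6 genes) ran from 399024 to 467101 CPM in controls and from 162786 to 228375 CPM in OA-AP. In bulk tissue, fewer cells of a type and less RNA per cell cannot be told apart.

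Krt8 was no longer called without control library 1 (log2 fold change 2.42) or without control library 2 (2.27). Krt18 was no longer called without control library 2 (1.67). Each of these fits leaves 1 control. The processed pseudogene Krt8-ps, 98.6% identical to Krt8 over 941 aligned bases, had 0 to 11 counts in the pancreas against 844 to 13939 for Krt8.

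Krt19, the keratin used most to mark pancreatic ducts, stood at 14.7 and 9.07 CPM in control and at 20.3, 14.5 and 25.4 CPM in OA-AP pancreas. The lowest OA-AP library was just under the higher control, so the groups overlapped. The log2 fold change of 0.75 ± 0.29 had an adjusted p of 0.0807 in edgeR and was not called, while it was called with library totals alone (1.43), without a low-count filter (0.82) and without OA-AP library 2 (0.93). Krt7 stood at 3.86 and 3.79 CPM in controls and at 3.57, 2.63 and 2.09 CPM in OA-AP. All 3 OA-AP libraries were below both controls, yet the log2 fold change of -0.47 ± 0.32 did not pass the edgeR test (adjusted p = 0.290), and its sign turned with library totals alone (0.26).

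Sox9 stood at 8.58 and 8.08 CPM in controls and at 5.88, 7.72 and 4.39 CPM in OA-AP pancreas. Each OA-AP library lay below each control, with a log2 fold change of -0.48 ± 0.26 that did not pass the edgeR test (adjusted p = 0.191) and that turned to 0.24 with library totals alone. Onecut1 stood at 5.84 and 4.79 CPM in controls and at 2.47, 3.32 and 0.94 CPM in OA-AP. It was the lowest in OA-AP library 3, the library that was highest in Krt8. Its log2 fold change of -1.25 ± 0.47 had an adjusted p of 0.0737 in edgeR and was not called. It was called with DESeq2 (-1.29, adjusted p = 0.0401) and with 4 of the other alternatives, among them that without OA-AP library 3 (-0.93). Onecut1 shares 2171 exon bases with Gm20649, which had 0 counts in all 11 libraries. How reads in these shared bases were counted is not given, so some Onecut1 reads may be missing.

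Klf5, a zinc finger factor of proliferating epithelia, had the smallest adjusted p of the 9 genes in the pancreas. It stood at 1.97 and 2.69 CPM in controls and at 6.98, 7.15 and 8.89 CPM in OA-AP, from 23 to 27 counts and 125 to 170 counts. The groups were well apart and the OA-AP libraries close together. The log2 fold change was 1.72 ± 0.26 (adjusted p = 0.00233, edgeR), and Klf5 was called without each library in turn (1.51 to 1.96). Klf4 stood at 5.15 and 6.98 CPM in controls and at 7.04, 5.43 and 5.02 CPM in OA-AP, with overlap and a log2 fold change of -0.05 ± 0.25 (adjusted p = 0.891, edgeR). Its sign depended on the scaling, since it was 0.68 with library totals alone.

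Spp1 stood at 41.4 and 40.7 CPM in control pancreas and at 35.3, 31.1 and 85.0 CPM in OA-AP pancreas. OA-AP libraries 1 and 2 were below both controls and library 3 was about 2 times the controls, so the direction rested on library 3. The log2 fold change was 0.30 ± 0.46 (adjusted p = 0.653, edgeR), and -0.35 without library 3 (adjusted p = 0.0286, edgeR), where the change was smaller than the 1.5-fold threshold. Neither was called.

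**Figure D2:**
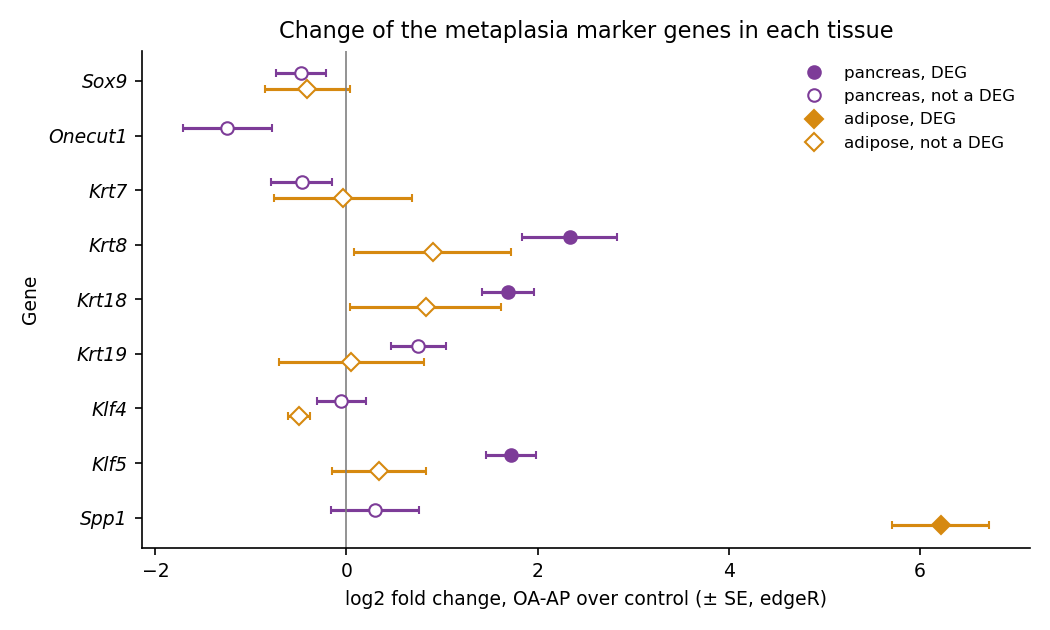
Log2 fold change of OA-AP over control for each gene, with its standard error from edgeR, circles for the pancreas and diamonds for adipose tissue, filled where the gene was a DEG. Krt8, Krt18 and Klf5 are filled in the pancreas and Spp1, at 6.22, in adipose tissue, and Onecut1 has no adipose value.

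Ratios of 2 genes within a library do not depend on how libraries are scaled. Krt8 over Krt18 was 0.91 and 0.84 in control pancreas and 1.30, 1.01 and 1.62 in OA-AP pancreas. Krt7 over Krt19 was 0.27 and 0.42 in controls and 0.18, 0.18 and 0.08 in OA-AP. Klf5 over Klf4 was 0.39 in both controls and 0.99, 1.31 and 1.77 in OA-AP. The groups did not overlap for any of these or for the ratios that follow. Among all tested genes taken singly, 62.3% did not overlap in the pancreas. The 4 keratins together were 24.8 and 24.2 times Sox9 in controls and 116, 64.0 and 273 times in OA-AP, and Krt19 was 1.71 and 1.12 times Sox9 in controls and 3.44, 1.88 and 5.76 times in OA-AP. The differences of the mean log2 ratios, OA-AP minus control, were 0.55, -1.26, 1.76, 2.37 and 1.27 in the order given. Two-sided exact permutation tests gave p = 0.1 for Krt7 over Krt19 and for Klf5 over Klf4 and p = 0.2 for the other ratios, where 0.1 is the smallest p that 2 libraries against 3 allow, and 0.333 after adjustment over 10 ratios, so none could pass at this sample size.

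Levels of different genes were compared as CPM per kb of the deposited gene length. In control pancreas Krt18 (70.4 CPM per kb) was the highest, followed by Krt8 (45.3), Spp1 (24.9), Krt19 (6.40), Sox9 (2.01), Klf4 (1.99), Onecut1 (1.29), Krt7 (0.543) and Klf5 (0.449). Only the neighbours Sox9 and Klf4 had ranges that overlapped. The place of Onecut1 is uncertain in both groups, because 2171 of its 4113 bases are shared with Gm20649. If reads in the shared bases were left uncounted, its level per kb is too low. In OA-AP pancreas Krt8 (229) and Krt18 (226) led with overlapping ranges, ahead of Spp1 (30.6) and Krt19 (10.8). Klf4 (1.91), Klf5 (1.48) and Sox9 (1.45) came next without a clear order, and Onecut1 (0.545) and Krt7 (0.392) were the lowest, also overlapping. Klf5 was thus last in controls and among the middle genes in OA-AP. With the length of the principal transcript, Klf5 stood before Klf4 and Krt7 before Onecut1 in OA-AP.

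Around these genes, lists of related genes were read in the pancreas with the same test, and each count is again to be read against the 29.8% of all tested genes. Of 24 tested genes of the epithelial cytoskeleton and of cell junctions, 16 rose and 1 fell, with a median log2 fold change of 1.23. The integrin subunit Itgb4, a part of hemidesmosomes, which anchor keratin filaments, averaged 28.9 ± 6.99 CPM over the 2 controls and 170 ± 28.9 CPM over the 3 OA-AP libraries (mean ± SD, as for the means that follow), a difference of 2.55 on the log2 scale. The desmosome protein Pkp3 rose by 1.43 and the tight junction protein Tjp1 by 1.02 on the log2 scale. Eppk1, the keratin-binding epiplakin, had the highest fold change of the list and is named after its values were seen, with 2.06 and 2.39 CPM in controls and 169, 95.3 and 462 CPM in OA-AP. Its OA-AP libraries had the order of Krt8. The count of genes that rose was 11 without control library 1 and 9 without control library 2.

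Of 4 other keratins tested, Krt80 (2.09) and Krt20 (1.96) rose and Krt10 and Krt23 did not pass, and 1 rose without control library 2. Of 11 other Klf factors tested, 7 rose in edgeR as in DESeq2, and 0 fell in either tool or at an unadjusted p under 0.05. Klf10, an early response gene of TGF-beta, averaged 7.08 ± 0.424 CPM over the 2 controls and 50.5 ± 5.35 CPM over the 3 OA-AP libraries, a log2 fold change of 2.83, and Klf11 (1.86) and Klf13 also rose. The count of Klf factors that rose was 4 without control library 1 and 3 without control library 2.

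Other duct genes moved in both directions, with 8 of 19 tested higher and 4 lower. Muc1, a mucin of the apical membrane of acinar and duct cells, averaged 144 ± 3.93 CPM over the 2 controls and 49.1 ± 6.24 CPM over the 3 OA-AP libraries, a log2 fold change of -1.55. Elf3 (2.49) and Ehf (1.40), epithelial factors of the ETS family, rose. Without control library 2, 5 rose and 1 fell. Among progenitor and Sox factors, 3 of 19 rose and 3 fell. Yap1, the Hippo pathway coactivator, rose by 1.23 and Foxa2, a foregut factor, fell by 1.22 on the log2 scale. Without control library 1, and likewise without control library 2, 1 rose and 0 fell.

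Of 19 tested genes linked to metaplasia, 5 rose and 4 fell. Tff2, a secreted trefoil peptide, averaged 1773 ± 224 CPM over the 2 controls and 414 ± 43.2 CPM over the 3 OA-AP libraries, a log2 fold change of -2.10, while the integrin subunit Itga3 (1.92) and the EGF receptor gene Egfr (1.57) rose. Without control library 1, 3 rose and 1 fell, and without control library 2, 3 rose and 2 fell. The count that fell was 1 without OA-AP library 1 and 2 without OA-AP library 2. Of 26 acinar identity genes, 15 fell and 2 rose, with a median of -1.01. Rbpjl, the acinar subunit of the PTF1 complex, averaged 729 ± 5.80 CPM over the 2 controls and 105 ± 26.2 CPM over the 3 OA-AP libraries, a log2 fold change of -2.79, and the lipase genes Cel and Pnlip each fell by 1.62 on the log2 scale. Ptf1a itself, named after its values were seen, stood at 14.9 and 11.1 CPM in controls and at 11.9, 16.1 and 13.7 CPM in OA-AP. Without control library 1, and likewise without control library 2, 14 fell and the 2 that rose were no longer called. With library totals alone, 10 acinar genes fell and 5 rose, with a median of -0.30 against 0.75 over all tested genes.

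**Figure D3:**
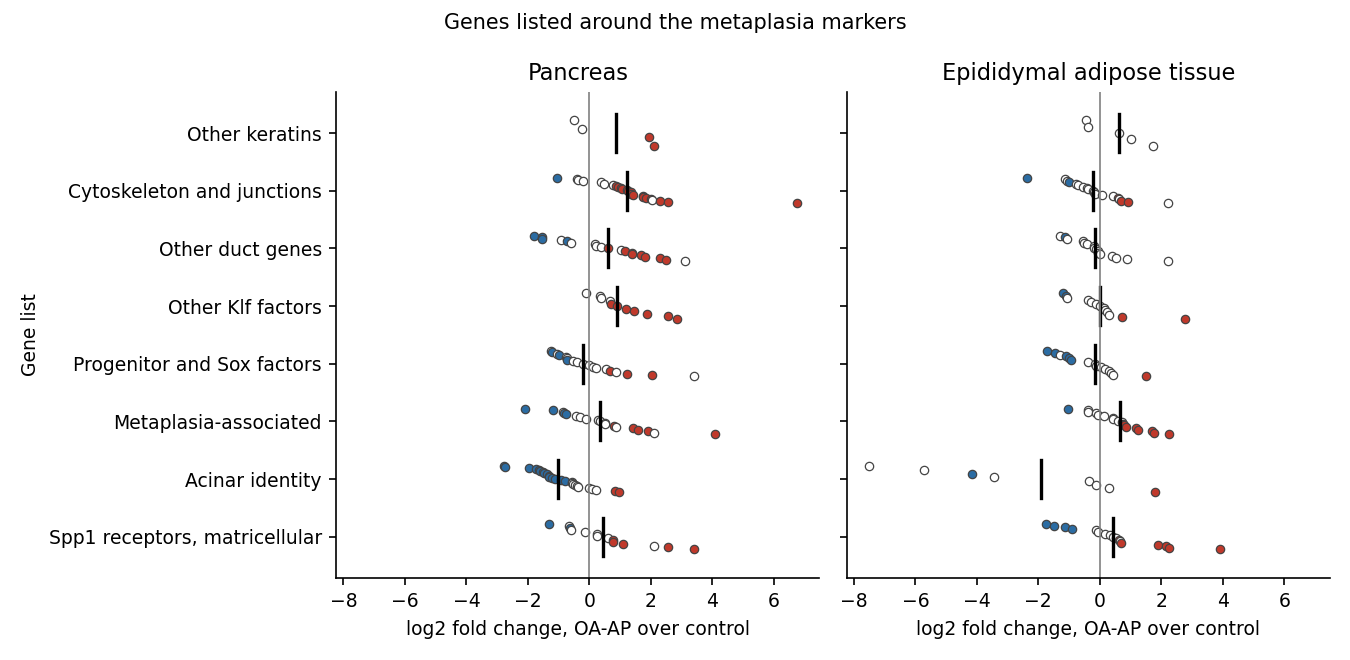
Log2 fold change of OA-AP over control for each tested gene of 8 lists, in the pancreas and in adipose tissue, red for DEGs that rose, blue for DEGs that fell and open for genes that were not called, with a bar at the list's median. In the pancreas the cytoskeleton and junction list has its median at 1.23 and the acinar identity list at -1.01, and in adipose tissue these lists have medians of -0.23 and -1.90, the latter over 8 genes and 0.39 over 7 genes without control library 2.

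In adipose tissue the same question was asked. Spp1 was the only 1 of 8 tested genes that was called, upregulated by 74.5-fold, where 25.1% of all tested genes were called in either direction. Spp1 and Klf4 were the 2 genes whose groups did not overlap, where 52.4% of all tested genes did not overlap. The 4 keratins overlapped between the groups and none was called. The median log2 fold change of the 8 genes was 0.19 against -0.01 over all tested genes.

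Spp1 stood at 0.81, 1.23 and 0.54 CPM in the control libraries and at 89.3, 31.7 and 69.3 CPM in the OA-AP libraries, from 16 to 29 counts and 660 to 1723 counts. Every OA-AP library was over 20 times the highest control. The log2 fold change was 6.22 ± 0.51 (adjusted p = 0.000614, edgeR), and 5.90 to 6.55 when each library was left out in turn. Per kb of gene length, its mean level was 0.523 CPM in controls and 38.5 CPM in OA-AP. This was the highest mean of the 9 genes in OA-AP fat, with a range of 19.3 to 54.2 CPM per kb that overlapped those of Klf4 (27.5 to 34.4) and Krt19 (7.02 to 55.6). Exon bases shared with Gm42793 number 309, and that gene had 0 to 3 counts in the pancreas libraries. Gm42793 has no adipose counts to set beside the Spp1 rise in fat.

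Spp1 is made by macrophages among other cells, so markers of immune cells are given beside it. The summed level of 6 macrophage markers ran from 600.3 to 719 CPM in controls and from 577 to 814 CPM in OA-AP fat. Of the 6, Cd68 rose and Csf1r fell, Trem2 stood at 7.37 to 10.9 CPM and at 7.12 to 8.46 CPM, and none was at 0. The sum of 6 neutrophil markers ran from 17.0 to 35.6 CPM and from 152 to 191 CPM, with 5 of the 6 upregulated and Mmp9 (-0.75) not called. The sum of 5 lymphocyte markers ran from 5.57 to 34.0 CPM in controls and from 1.71 to 2.98 CPM in OA-AP, and all 4 tested fell. Neutrophil markers other than Mmp9 thus rose, and lymphocyte markers fell, in the libraries in which Spp1 rose. The part of these cells in the result was not tested.

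Klf4, a factor also made by endothelium and stromal cells, was the most abundant of the 9 genes in control fat. It stood at 135, 148 and 129 CPM in controls and at 103, 105 and 84.0 CPM in OA-AP. The groups did not overlap, and the log2 fold change of -0.50 ± 0.12 had an adjusted p of 0.0151 in edgeR, but the change, to 0.707 times the control level, was smaller than the 1.5-fold threshold. Klf4 was called with no fold threshold and with library totals alone (-0.65). Summed endothelium markers (4 genes) ran from 871 to 986 CPM in controls and from 982 to 1427 CPM in OA-AP, and summed fibroblast markers (5 genes) from 1972 to 2433 CPM and from 1122 to 1440 CPM. Of the 5 fibroblast markers, Col1a1, Dcn and Lum fell, while Pdgfrb stood at 92.7 to 99.8 CPM in controls and at 102 to 121 CPM in OA-AP and Pdgfra had a log2 fold change of 0.39, neither called. The part of these cells in the Klf4 level was not tested. Klf5 stayed between 0.21 and 0.93 CPM in all 6 adipose libraries (log2 fold change 0.34 ± 0.49, adjusted p = 0.615, edgeR), and Sox9 between 1.01 and 3.98 CPM (-0.41 ± 0.45, adjusted p = 0.497, edgeR).

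**Figure D4:**
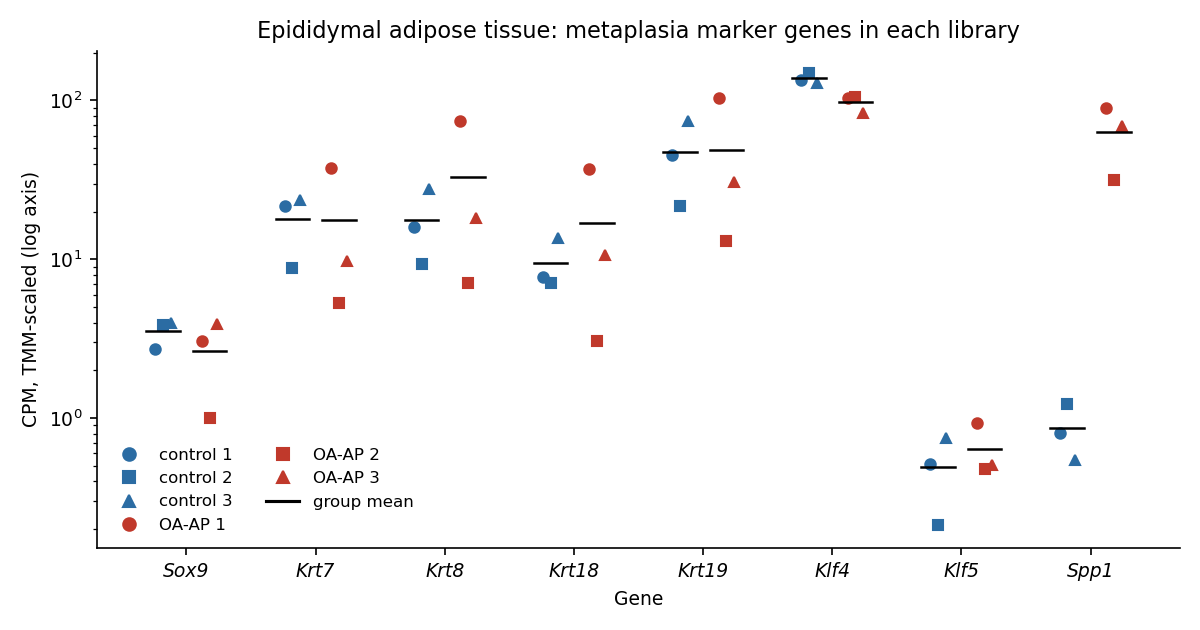
CPM of 8 genes in each adipose library on a log axis, blue for the 3 controls and red for the 3 OA-AP libraries, with a bar for the group mean. Spp1 is the gene with clearly separate groups, Klf4 is slightly lower in OA-AP, and the keratins are highest in OA-AP library 1 and lowest in OA-AP library 2. Onecut1 is left out because it had 1 count in all.

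The keratins of adipose tissue moved together from library to library rather than by group. Krt19 stood at 45.4, 21.7 and 74.2 CPM in controls and at 103, 13.0 and 30.5 CPM in OA-AP. Krt8 stood at 16.1, 9.36 and 27.6 CPM and at 74.3, 7.12 and 18.2 CPM. For both the highest and the lowest library were OA-AP libraries 1 and 2. Krt7 stood at 21.6, 8.86 and 23.5 CPM and at 37.7, 5.34 and 9.70 CPM, and Krt18 at 7.79, 7.12 and 13.6 CPM and at 37.1, 3.08 and 10.7 CPM. These also had OA-AP library 1 highest and OA-AP library 2 lowest. The log2 fold changes were 0.05 ± 0.76 for Krt19, 0.90 ± 0.82 for Krt8, -0.04 ± 0.72 for Krt7 and 0.83 ± 0.79 for Krt18, with edgeR adjusted p-values from 0.420 to 0.972. Without OA-AP library 1 they were -1.11, -0.48, -1.26 and -0.46, none called.

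Markers of mesothelium, the epithelial lining of the fat pad, varied between libraries too. The sum of Msln, Upk3b, Wt1, Upk1b, Lrrn4 and Bnc1 was 422, 259 and 691 CPM in controls and 435, 150 and 163 CPM in OA-AP, in the order of Krt19 within each group. None of the 6 was called by edgeR or DESeq2 (2 were lower at an unadjusted p under 0.05 in edgeR), and none was at 0 in any adipose library. Their part in the keratin levels was not tested. The 4 keratins amounted to 21.5, 18.2 and 20.1 counts per 100 counts of these markers in controls and to 58.0, 19.0 and 42.4 in OA-AP. Controls were close to one another on this scale, while OA-AP libraries 1 and 3 lay above them and library 2 among them. Krt8 alone was at 3.80, 3.62 and 4.00 per 100 in controls and at 17.1, 4.73 and 11.2 in OA-AP, above the controls in every OA-AP library. Krt19 was at 10.8, 8.39 and 10.7 in controls and at 23.7, 8.66 and 18.7 in OA-AP, where the groups overlapped. This scale was added after the data were seen and carries no test. It also rests on the markers summed, which did not move alike. Upk3b, the highest of the 6 in every control, stood at 181, 118 and 329 CPM in controls and at 139, 45.3 and 52.3 CPM in OA-AP. Msln stood at 76.4, 36.4 and 109 CPM in controls and at 105, 50.9 and 40.2 CPM in OA-AP. Relative to Msln alone, Krt8 was below the controls in OA-AP library 2. Markers of epididymis epithelium summed to at most 0.0738 CPM in adipose libraries.

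**Figure D5:**
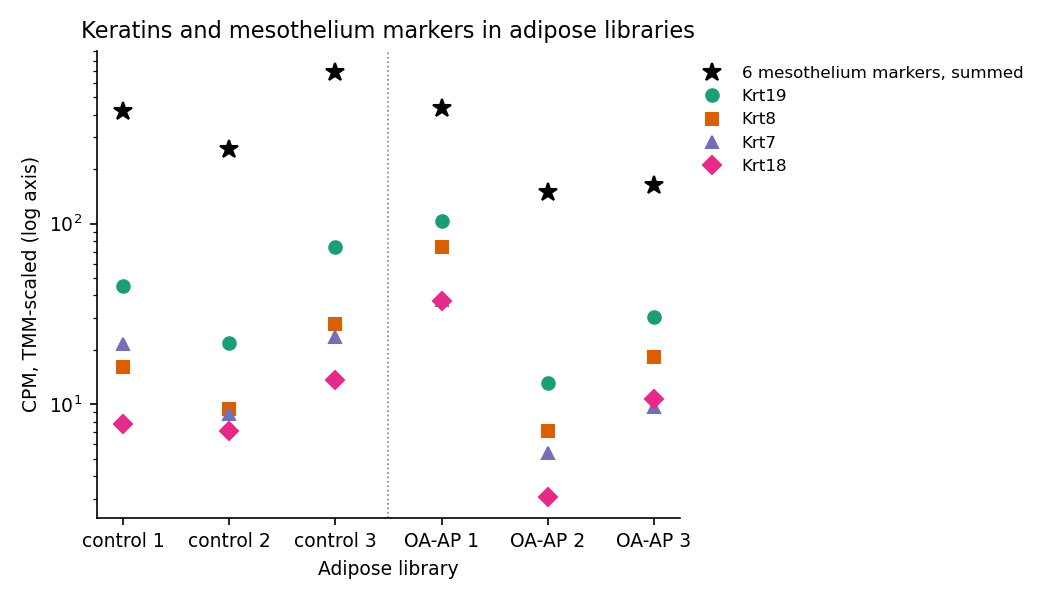
CPM of Krt19, Krt8, Krt7 and Krt18 and the summed CPM of 6 mesothelium markers in each adipose library, on a log axis. Keratins and mesothelium markers are low together in OA-AP library 2, at 13.0 CPM for Krt19 and 150 CPM for the markers, and Krt8 lies nearer to the markers in OA-AP libraries 1 and 3 than in the controls.

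Within adipose libraries, Krt8 over Krt18 was 1.31 to 2.06 in controls and 1.71 to 2.30 in OA-AP, so Krt8 exceeded Krt18 in every one. The value of 1.31 was that of control library 2, which had 1.17% of its counts on acinar secretory genes. Controls 1 and 3 stood at 2.06 and 2.03. The part of acinar RNA in this ratio was not tested. The 5 ratios overlapped between the groups in fat, with differences of the mean log2 ratio from -0.12 to 0.98 and two-sided exact permutation p-values from 0.2 to 0.8. Per kb of gene length, control fat had Klf4 (45.1 CPM per kb) and Krt19 (25.4) at the top, where control pancreas had Krt18 and Krt8. The duct keratin Krt19 was thus above Krt8 per kb in control fat and below it in control pancreas.

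The same gene lists gave other counts in fat, to be read against 25.1%. Of 16 other duct genes tested, 1 fell, the factor Glis3 (-1.13), and 0 rose in edgeR, where 2 were higher at an unadjusted p under 0.05 and DESeq2 called 1. Pkd2, 1 of these 2, had an adjusted p of 0.00884 in edgeR. Its log2 fold change of 0.52 was smaller than the 1.5-fold threshold. Glis3 was not called without control library 1 or 3, and 4 duct genes fell without OA-AP library 1. Of 5 other keratins 0 were called in edgeR, where 3 had an unadjusted p under 0.05, and DESeq2 called 2. Among cytoskeleton and junction genes 3 of 19 rose and 2 fell, with Plec (0.92) higher and the desmosome protein Dsp (-2.37) lower, and 6 fell without OA-AP library 1. Of 18 genes linked to metaplasia, 8 rose and 1 fell. Anxa1, an annexin, averaged 253 ± 29.9 CPM over the 3 controls and 860 ± 142 CPM over the 3 OA-AP libraries, and Cd44, a receptor that binds osteopontin and hyaluronan, from 30.5 ± 6.35 CPM to 146 ± 42.2 CPM, a log2 fold change of 2.26. Nes fell by 1.02 on the log2 scale.

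Of 17 receptors of Spp1 and other matricellular genes tested in fat, 6 rose and 4 fell. Tnc, tenascin-C, averaged 14.9 ± 5.42 CPM over the 3 controls and 222 ± 11.7 CPM over the 3 OA-AP libraries, a log2 fold change of 3.90. Thbs2, thrombospondin 2, rose by 2.17 and Vtn, vitronectin, fell by 1.48 on the log2 scale. The count that fell was 2 without control library 3 or OA-AP library 3. In the pancreas 5 of 14 of this list rose, with the integrin subunits Itgb1 (0.78) and Itgb5 (0.77) among them, and 2 fell, with Vtn (-1.32). None of those in the pancreas was called without control library 1 or without control library 2. Of 13 other Klf factors in fat, Klf10 (0.72) and Klf14 (2.76) rose and 2 fell, Klf11 (-1.10) among them. Klf10 and Klf14 were not called without control library 1 or without control library 3. Sox7 (-1.73) and Sox6 fell and Tead1, a partner of Yap1, rose among 15 progenitor and Sox factors, of which 5 fell and 1 rose. The count that fell was 3 without control library 1 or 2 and 2 without control library 3 or OA-AP library 3. Of 8 acinar identity genes tested in fat, Xbp1 (1.80), a factor of secretory cells of many kinds, rose and Rbpjl fell. Rbpjl stood at 0.443, 5.59 and 0.647 CPM in controls, the highest in the library with 1.17% of its counts on acinar secretory genes, and at 0.104, 0.0481 and 0.202 CPM in OA-AP.

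The tissue by condition term asked whether a gene's change differed between pancreas and fat. It was called for 1 of the 9 genes, where 21.3% of all tested genes were called. The log2 fold change of Spp1 was lower by 5.90 ± 0.74 in the pancreas than in adipose tissue (adjusted p = 0.000577, edgeR), with 0.30 in the one and 6.22 in the other. For Klf5 the difference was 1.40 ± 0.57 (adjusted p = 0.105, edgeR), and for Krt8 it was 1.45 ± 1.16 (adjusted p = 0.429, edgeR). Klf5 and Krt8 were therefore called in the pancreas and not in fat without a difference between the tissues that passed the test. Klf5 did pass in DESeq2 (1.38, adjusted p = 0.0474) and without adipose control library 2 (1.78), and Krt8 passed without adipose OA-AP library 1 (2.86, adjusted p = 0.0469). Onecut1 is counted among the 9 but gives no comparison here, with 1 adipose count.

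Genes whose log2 CPM followed each of the 9 most closely over all 11 libraries were sought among genes whose log2 CPM averaged 3 or more. For Krt8 these were Myo5b (Pearson's r = 0.993), a motor protein of apical membrane traffic, and Grsf1 (0.986), an RNA-binding protein, and both were also the closest to Krt18 (0.994 and 0.992). Klf5 was followed by Grsf1 (0.995) and Igf1r (0.993), Spp1 by Srm (0.993), Klf4 by Tcaf1 (0.991) and Cfd (0.990), Sox9 by Camk1d (0.990) and Onecut1 by Lmtk2 (0.995). For Krt7 and Krt19 the closest were weaker, Adora1 (0.867) and Fdft1 (0.808). The 11 points share the contrast of 5 pancreas and 6 adipose libraries, which alone makes such values high for genes that differ between the tissues.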

How the data were processed

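Samples were grouped by their labels. The authors trimmed reads with Trim Galore 0.6.6, checked them with fastp 0.20.1, mapped them to GRCm38 with STAR and deposited gene counts from featureCounts 2.0.1 without normalization. The annotation release and strand setting of the counting are not given in the sources used here. The pancreas table also lists gene lengths, used only for levels per kb.

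Genes were filtered with filterByExpr (12884 kept in the pancreas, 15839 in adipose tissue, 17046 in the joint fit of the 45260 genes in both tables), scaled with TMM and tested over the whole table with edgeR 4.0.16 (robust quasi-likelihood, Benjamini-Hochberg) in R 4.3.3. The script was checked on data with known answers. Standard errors are the log2 fold change over the square root of F. Ratios used a pseudocount of 0.5. Alternatives were DESeq2 1.42.0, its size factors, library totals, factors without acinar genes, other filters and fold thresholds, a replicate block and each library left out. The length of the principal transcript, the mesothelium scale and the list thresholds were added after the data were seen.

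The members and gene lists were chosen with earlier results of these data known. Named genes were all 9 members, up to 3 DEGs of each list and tissue with the smallest p, and the 2 genes most like each member by Pearson's r, except where the text says otherwise. Some of these are given only as counts, and certain items are not reported here. Same-numbered control and OA-AP samples did not deviate together (pancreas r of 0.0015 and -0.041, adipose r from -0.163 to 0.056). Nor did same-numbered pancreas and adipose samples (r from -0.012 to 0.090), so the numbers were not used as pairs. The main joint fit took pancreas and adipose libraries as independent, and the labels do not say whether they share animals. No 2 libraries agreed within counting noise (chi-square per degree of freedom from 7.56). The labels do not say that libraries are separate animals, so p-values measure the spread between these samples.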

Additional observations from a re-analysis of the deposited data

Results flagged for a closer look

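Spp1 was flagged because its change under OA-AP differed between the tissues by a test of the difference itself. The tissue by condition term, pancreas minus adipose, was -5.90 ± 0.74 on the log2 scale (adjusted p = 0.000577, edgeR). Spp1 was higher in 3 of 3 OA-AP adipose libraries than in every adipose control, while in the pancreas 1 of 3 OA-AP libraries was above the controls.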

How the results depend on the processing

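The pancreas had 2 control libraries, so 1 library decides many calls, and weak markers such as Krt7, Klf5 and Onecut1 rest on fewer than 200 counts per library. Of the 9 genes, 3 were called in the pancreas, 4 with library totals alone and 4 with DESeq2, and 1 to 5 when a library was left out, 1 without control library 2 and 5 without OA-AP library 2. In adipose tissue 1 was called, 2 with library totals alone and 2 without a fold threshold, and 1 without each library in turn. The tissue by condition test called 1, 3 with library totals alone, 2 with DESeq2 and 1 to 2 without a library. Over all genes the pancreas DEGs numbered 3834, 6349 with library totals alone (92.0% of them higher, against 54.5%), 2464 at a fold of 2, and 1687 and 1495 without control library 1 or 2. The adipose DEGs numbered 3981 and 2228 at a fold of 2, and 32.1% were higher with library totals alone against 48.1%. The tissue by condition calls numbered 3636, 6662 with library totals alone and 2156 with the replicate block. With library totals alone 94.1% of the calls had a more positive change in the pancreas than in adipose tissue, against 49.3%.

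Signs that turned belonged to genes that were not called. In the pancreas, library totals alone gave log2 fold changes of 0.24 for Sox9, 0.26 for Krt7 and 0.68 for Klf4, and Klf4 was 0.022 without a filter. The replicate block, which the numbers do not warrant, gave 0.049 for Klf4 and -0.31 for Spp1 and called Onecut1 (-0.89) beside Krt8, Krt18 and Klf5. Krt8 was not called without a filter (2.41). Without a library, Klf4 ranged from -0.25 to 0.18 and Spp1 from -0.35 to 0.55. In adipose tissue Krt19 was -0.12 with library totals alone and -0.28 with the block, and without a library Krt7 ranged from -1.26 to 0.40, Krt8 from -0.48 to 1.38, Krt18 from -0.46 to 1.33, Krt19 from -1.11 to 0.54 and Klf5 from -0.019 to 0.79. The tissue by condition value with library totals alone was 0.81 for Sox9 and 0.46 for Krt7, and -0.72 for Onecut1 in DESeq2. Without a library it ranged from -0.39 to 0.39 for Sox9, from -1.25 to 0.49 for Onecut1 and from -0.79 to 0.84 for Krt7. The Onecut1 values do not measure a difference between the tissues, because Onecut1 had 1 adipose count. Its -1.25 came from the fit without adipose control library 2, which held that count, and had an SE of 2554.7. Adipose log2 ratio differences without a library ranged from -0.040 to 0.28 for Krt8 over Krt18, from -0.28 to 0.014 for Krt7 over Krt19, from -0.27 to 0.78 for Krt19 over Sox9 and from -0.12 to 0.98 for the 4 keratins over Sox9. The causes were not tested. The 5 pancreas ratios kept their direction without each library.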
